A study of Mus musculus with 15 samples.

Results

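Collagen chain genes are the genes whose symbol is Col, a number, the letter a and a number, such as Col6a1. They were picked by that name pattern alone, with the brightest probe set standing for a gene, which gave 44 of the 19937 genes measured. All 44 such genes of the mouse reference gene table were on the array, and 2 of them (Col6a5 and Col6a6) had more than 1 probe set. Transcript levels were read on 15 arrays of 4T1 cells, a metastatic mouse mammary carcinoma line, with 3 arrays for each of 5 lines. These were parental 4T1 cells, cells depleted of endogenous Twist1 (4T1_Tw1KD, here Tw1KD), and 3 lines made from Tw1KD by adding back Twist1 as wild type, as Twist1/S42A or as Twist1/S42D (here the wild-type, S42A and S42D lines). Twist1 is a basic helix-loop-helix transcription factor that drives epithelial-mesenchymal transition; alanine in place of the serine named in S42A cannot be phosphorylated, and aspartate in S42D carries a charge like a phosphate. The genotype label of the S42D samples lists both substitutions, so the title alone identifies them. The labels give 4 µg/ml puromycin and 800 µg/ml G418 for all cells, parental cells not excepted. How Twist1 was depleted, what drove the constructs and whether a line is a single clone are not given in the sources used here, and the labels do not say that the 3 arrays of a line came from separate cultures. The p-values therefore measure the spread between these arrays, which may be technical.

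Collagens are secreted or membrane proteins whose chains wind into triple helices, and some types, such as types I, IV, V, VI and VIII, can combine chains of different genes while others use the chain of a single gene. Fibrillar collagens such as types I, III and V give tissue its strength, type IV forms the sheet of basement membranes, and type VI forms beaded filaments that link cells to the matrix around them. In carcinomas, most fibrillar collagen is made by fibroblasts of the stroma, while carcinoma cells make basement membrane chains and can take up mesenchymal collagens when they lose epithelial features.

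The bases before the start of 5 members are shown because these genes moved most in the S42D line or, for Col6a1 and Col6a2, because they are neighbours on the chromosome that were both highest there. Each run holds the 250 bases before the annotated start, 5′ to 3′ on the gene's strand, from RefSeq on GRCm38.p6. Capitals mark E-boxes (CANNTG, which reads the same on both strands), the motif family that basic helix-loop-helix factors bind.
Col6a1, chr10:76726045-76726294, minus strand: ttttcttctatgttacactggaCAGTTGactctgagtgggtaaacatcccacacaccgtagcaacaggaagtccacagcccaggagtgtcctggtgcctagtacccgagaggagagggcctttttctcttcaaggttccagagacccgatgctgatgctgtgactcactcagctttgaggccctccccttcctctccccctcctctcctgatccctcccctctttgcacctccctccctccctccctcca
Col6a2, chr10:76623631-76623880, minus strand: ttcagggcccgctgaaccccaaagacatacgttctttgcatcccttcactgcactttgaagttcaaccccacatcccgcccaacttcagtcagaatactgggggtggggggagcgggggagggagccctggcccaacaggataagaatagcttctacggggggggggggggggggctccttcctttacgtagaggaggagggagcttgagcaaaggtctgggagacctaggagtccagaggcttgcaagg
Col8a1, chr16:57754738-57754987, minus strand: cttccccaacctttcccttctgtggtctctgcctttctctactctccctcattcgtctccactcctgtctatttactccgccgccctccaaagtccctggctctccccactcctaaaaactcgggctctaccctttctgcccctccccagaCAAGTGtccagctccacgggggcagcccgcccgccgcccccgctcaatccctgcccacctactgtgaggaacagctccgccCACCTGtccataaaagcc
Col4a5, chrX:141475169-141475418, plus strand: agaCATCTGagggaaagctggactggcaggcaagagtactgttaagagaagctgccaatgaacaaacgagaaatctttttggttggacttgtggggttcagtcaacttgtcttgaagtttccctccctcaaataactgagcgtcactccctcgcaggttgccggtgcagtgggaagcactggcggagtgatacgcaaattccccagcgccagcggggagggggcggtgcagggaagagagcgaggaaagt
Col5a1, chr2:27886175-27886424, plus strand: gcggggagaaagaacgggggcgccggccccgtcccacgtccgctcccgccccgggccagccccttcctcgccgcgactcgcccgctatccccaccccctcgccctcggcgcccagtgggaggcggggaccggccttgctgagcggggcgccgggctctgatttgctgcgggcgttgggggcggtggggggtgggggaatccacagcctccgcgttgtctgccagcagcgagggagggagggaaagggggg
Of these windows, that of Col8a1 held 2 E-boxes, those of Col6a1 and Col4a5 held 1, and those of Col6a2 and Col5a1 held none. RefSeq windows were matched for 35 of the 44 members. An E-box was present in 19 of their 38 windows (50%), against 66.2% of all 32851 windows of the same length. A pair of E-boxes, CANNTG and CANNTG with 5 bases of any kind between them, was present in 0 of the 38 collagen windows and in 0.639% of all windows. A match describes letters only, and a window with none says nothing about binding elsewhere.

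Arrays of a line correlated at 0.997 to 0.999 across genes and arrays of different lines at 0.975 to 0.987, and the array medians lay between 6.57 and 6.72 log2. Twist1 itself (probe set 10395320) read 9.01, 9.03 and 9.07 log2 on the parental arrays and 7.47, 7.23 and 7.35 on those of Tw1KD. The wild-type arrays read 8.35, 8.49 and 8.16, the S42A arrays 8.60, 8.71 and 8.80, and the S42D arrays 9.07, 8.96 and 8.97. Twist1 was thus low in Tw1KD cells and differed among the re-expressing lines, so any difference between those lines goes with a difference in Twist1 level as well as in its sequence, and the 2 cannot be told apart. Among epithelial markers the mean log2 level per array was 9.49 to 9.56 in parental cells and 10.30 to 10.38 in Tw1KD cells, against 8.55 to 8.60, 7.80 to 7.93 and 8.27 to 8.40 in the wild-type, S42A and S42D lines. Of 14 epithelial markers, 1 was higher and 12 lower in wild type than in Tw1KD (adjusted p under 0.05 in limma). The counts were 2 and 12 in S42A, and 1 and 9 in S42D with 4 not called. Among all genes the shares were 23.5% and 24.5%, 22.8% and 19.7%, and 21.7% and 21.7%. Cdh1 and Epcam, the genes of E-cadherin and of an epithelial adhesion molecule, were among those lower in the 3 re-expressing lines. Krt8 went the other way, with line means of 12.89 log2 in Tw1KD and 13.18, 13.09 and 13.11 in those lines. With bulk RNA, fewer cells that express a gene and less RNA of it per cell cannot be told apart.

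Most collagen chains moved little in signal. Whether probe sets that read near the array medians (6.57 to 6.72 log2) detect their transcripts was not tested. A called gene had an adjusted p (Benjamini-Hochberg over 19937 genes) under 0.05 in limma's fit of the log2 intensities. Over the 7 main comparisons 20 of the 44 members were called at least once, 21 were called in none of the 10 comparisons, and 5 (Col4a5, Col6a1, Col6a2, Col8a1 and Col12a1) had a change of at least 2-fold with arrays that did not overlap. For all genes no such count over several comparisons is given here, so the 20, 21 and 5 cannot be set against a background. In each of the 7 the share of collagen genes called was below that of all genes, which ran from 36.1% to 48%.

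In Tw1KD against parental cells 3 members were higher and 5 lower, which is 6.82% and 11.4% of the 44, against 19.9% higher and 16.4% lower among all genes (36.3% in either direction). The total of 8 was 5 without parental replicate 1 or Tw1KD replicate 3, and 4 with only these lines fitted. For the wild-type line against Tw1KD the counts were 2 higher and 12 lower (backgrounds 23.5% and 24.5%, 48% in all). That lower count depends on the scaling: it became 3 higher and 3 lower with each array centred on its median, 3 and 4 with quantile normalization, and 3 and 9 with cyclic loess. The total of 14 was 8 without Tw1KD replicate 2, 22 without Tw1KD replicate 3 and 7 without wild-type replicate 1. The S42A line had 5 higher and 4 lower against Tw1KD (backgrounds 22.8% and 19.7%, 42.5% in all). The S42D line had 6 higher and 2 lower (backgrounds 21.7% and 21.7%, 43.4% in all).

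Between re-expressing lines, S42A had 9 members higher than wild type and 0 lower (backgrounds 20% and 20%, 40% in all); at an unadjusted p under 0.05 in limma these were 15 and 0. The 9 became 5 without wild-type replicate 1 or S42A replicate 1 or 2, and 6 under each of the 3 other scalings. S42D had 10 higher and 1 lower than wild type (backgrounds 20.7% and 22.6%, 43.3% in all), and 7 higher and 3 lower than S42A (backgrounds 17.1% and 19.1%, 36.1% in all). Changes of at least 2-fold with arrays that did not overlap were fewer and sat mostly in the S42D comparisons. They numbered 1 in Tw1KD against parental cells, 1 in wild type, 1 in S42A and 3 in S42D against Tw1KD, 1 in S42A against wild type, 4 in S42D against wild type and 4 in S42D against S42A. In all genes the shares of such changes were 2.65%, 4.84%, 4.84%, 4.55%, 3.16%, 4.82% and 3.16% in the same order. The 44 members' median difference was -0.040, -0.15, 0.0064, -0.042, 0.15, 0.11 and -0.055 log2 in that order, where that of all genes was 0.0051, -0.061, -0.013, -0.045, 0.041, 0.010 and -0.034.

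**Figure D1:**
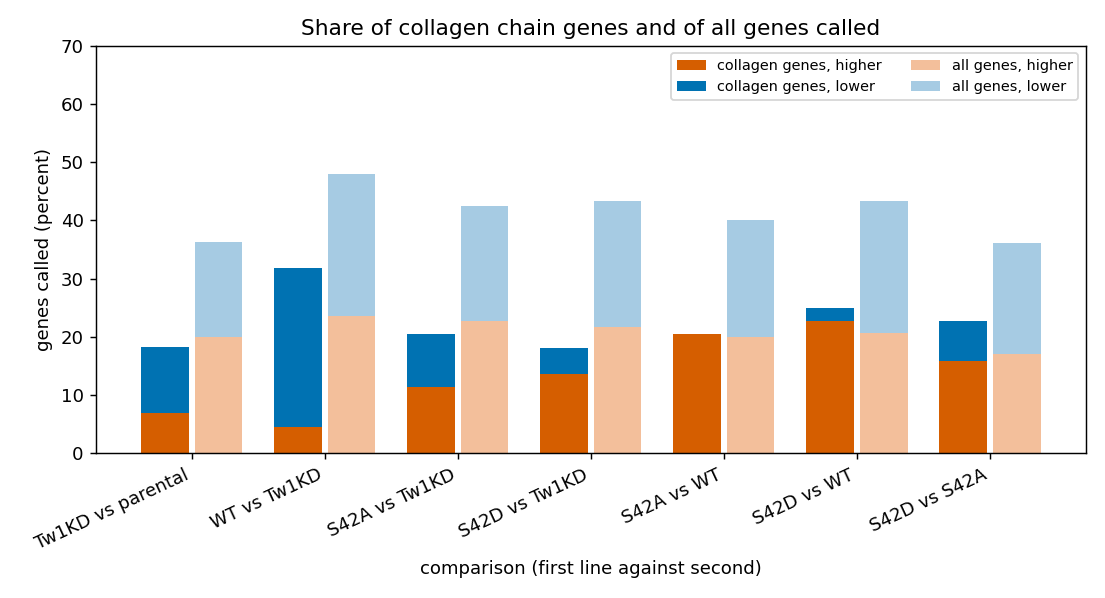
Share of collagen chain genes (44, dark bars) and of all genes (19937, pale bars) called, in percent, for the 7 main comparisons (adjusted p under 0.05), split into genes higher (orange) and lower (blue) in the first line named. In all 7 the dark bar is shorter than the pale one, and in S42A against wild type the collagen bar has no lower part.

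Type VI collagen held the largest changes. Col6a1 (probe set 10370210), which encodes the first chain of the beaded filament, read 9.87, 9.78 and 9.85 log2 on the parental arrays, 7.52, 7.78 and 7.67 on those of Tw1KD and 9.67, 9.74 and 9.71 on those of wild type. The S42A arrays read 9.81, 9.83 and 9.83, and the S42D arrays 11.84, 11.90 and 11.86. The S42D arrays were the highest and the Tw1KD arrays the lowest, both apart from all others, while parental and S42A arrays overlapped. Col6a1 fell by 2.18 ± 0.056 log2 in Tw1KD cells (SE, n = 3 per line, adjusted p = 1.4e-12), a 4.52-fold drop. Relative to Tw1KD, wild type was up by 2.05 ± 0.056, S42A by 2.17 ± 0.056 and S42D by 4.21 ± 0.056, the last an 18.5-fold rise (adjusted p = 1.4e-15). The wild-type and S42A lines came back to near the parental level: the differences from parental cells were -0.13 (95% interval -0.25 to -0.01, adjusted p = 0.073) and -0.01 (-0.13 to 0.11, adjusted p = 0.94). S42D stood 2.04 ± 0.056 above parental cells, 4.10-fold, and 2.16 and 2.04 above the wild-type and S42A lines. S42A and wild type were not called apart (0.12, interval 0.00 to 0.24, adjusted p = 0.11).

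Col6a2 (probe set 10370180), which encodes the second chain of the same protein, followed a different course in signal until the S42D line. It read 7.63, 7.43 and 7.42 log2 on the parental arrays, 7.34, 7.37 and 7.20 on those of Tw1KD and 7.31, 7.39 and 7.29 on those of wild type. The S42A arrays read 7.73, 7.69 and 7.71, and the S42D arrays 10.17, 10.08 and 10.20. Only the S42D arrays stood far from the rest, and Tw1KD and wild-type arrays overlapped. Where Col6a1 fell 4.52-fold on depletion, Col6a2 differed by -0.19 ± 0.062. That call was lost with median centring, quantile normalization, only these lines fitted, or without parental replicate 1 or Tw1KD replicate 3. Col6a2 had a parental mean of 7.49 log2, against 9.83 for Col6a1. Whether its probe set could show an equal fall from that level was not tested. The wild-type line showed no call against Tw1KD (0.03, interval -0.10 to 0.16, adjusted p = 0.73), where Col6a1 rose 4.14-fold. Col6a2 rose by 0.41 ± 0.062 in S42A and by 2.84 ± 0.062 in S42D (7.18-fold, adjusted p = 1.2e-13), and S42D stood 2.82 above wild type, 2.44 above S42A and 2.65 above parental cells. Differences from parental cells in the S42A line (0.22) and the wild-type line (-0.16) passed the threshold but were lost without parental replicate 2 and under the 3 other scalings respectively.

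Col6a3, the long chain that joins Col6a1 and Col6a2 in the usual type VI filament, stayed between 6.36 and 6.97 log2 on all 15 arrays. Both of these extremes were Tw1KD arrays. The S42D arrays (6.75, 6.88 and 6.79) lay above the wild-type and parental arrays and overlapped with those of Tw1KD and S42A, and no comparison was called. Its difference between S42D and Tw1KD was 0.17 (interval -0.09 to 0.42, adjusted p = 0.29), a smaller change in signal than that of Col6a1 or Col6a2. The signal of Col6a3 lay near the array medians (6.57 to 6.72). Whether its probe set detects the transcript was not tested, so the interval cannot exclude a change in the transcript. The related chains Col6a4, Col6a5 and Col6a6, thought to stand in for that chain, had line means of 6.30 to 6.39, 6.18 to 6.55 and 7.28 to 7.49 log2. Of these, Col6a5 (-0.37) and Col6a6 (-0.20) were lower in the wild-type line than in Tw1KD. Both were higher in S42A than in wild type (0.35 and 0.18), and Col6a6 also in S42D (0.17); none of these 5 calls held in every alternative.

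**Figure D2:**
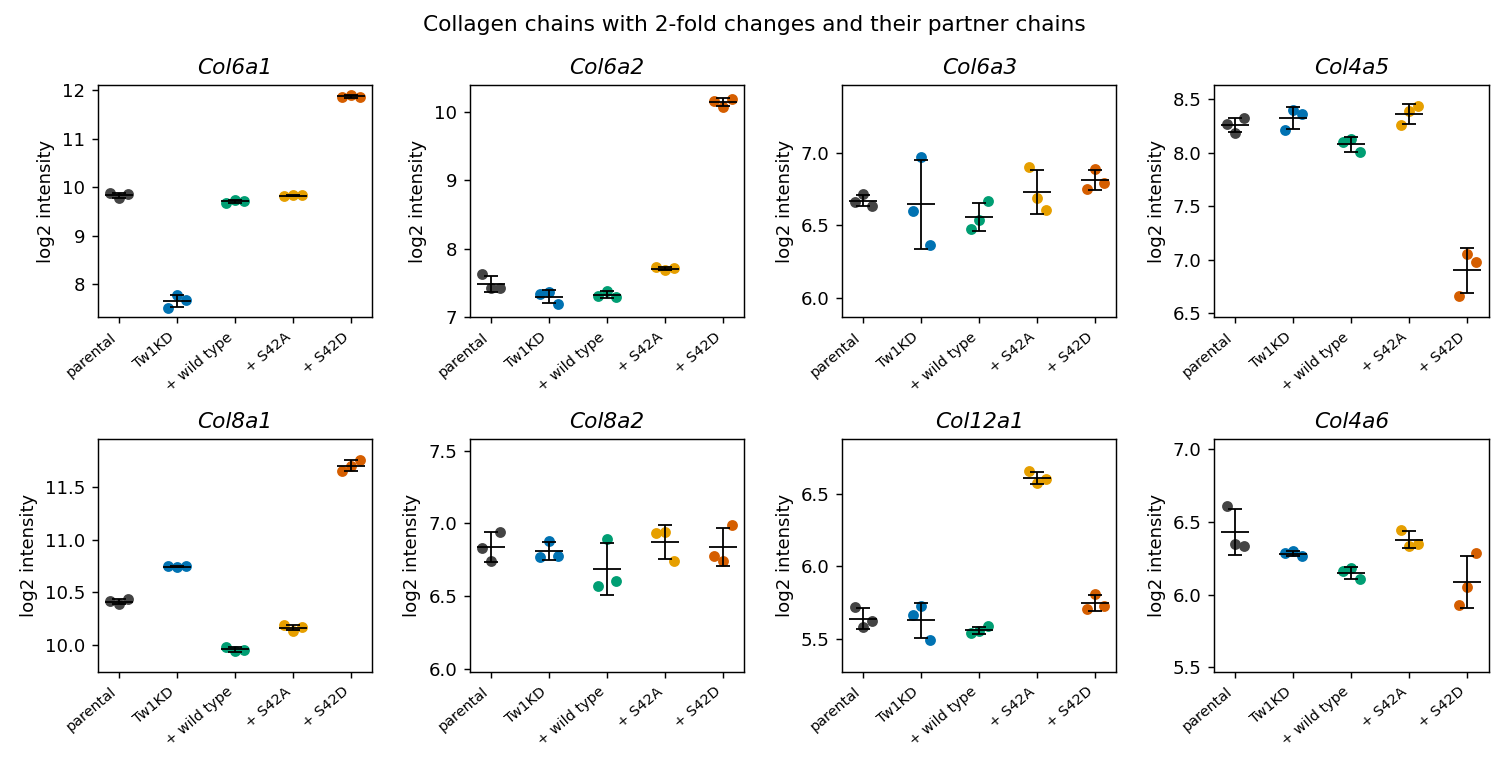
Log2 intensity of 8 collagen chain genes on each of the 15 arrays (dots) of the 5 lines, with the line mean (bar) and SD (whiskers, n = 3); each panel has its own vertical range. Col6a1, Col6a2 and Col8a1 are highest and Col4a5 lowest in the S42D line, and Col12a1 is highest in the S42A line. The partner chains Col6a3, Col8a2 and Col4a6 move little in signal.

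Type VIII collagen is a short-chain collagen of hexagonal networks, best known from blood vessel walls and the eye. Col8a1 (probe set 10440091) read 10.42, 10.39 and 10.43 log2 on the parental arrays, 10.75, 10.74 and 10.75 on those of Tw1KD and 9.98, 9.94 and 9.95 on those of wild type. The S42A arrays read 10.19, 10.14 and 10.17, and the S42D arrays 11.66, 11.70 and 11.76. No line overlapped with another. The order was S42D, Tw1KD, parental, S42A and wild type, and each neighbouring pair differed beyond its spread. Col8a1 rose by 0.33 ± 0.037 log2 on depletion and fell below the parental level with wild-type Twist1 (-0.79 ± 0.037 against Tw1KD) and with S42A (-0.58 ± 0.037). With S42D it moved the other way, up by 0.96 ± 0.037 over Tw1KD (adjusted p = 4.1e-11), so that S42D exceeded wild type by 1.75 (3.36-fold) and S42A by 1.54 (2.91-fold). All 10 comparisons of Col8a1 were called, and these calls held under every alternative. Its partner chain Col8a2 lay between 6.57 and 6.99 and was called in no comparison (S42D against Tw1KD 0.03, interval -0.17 to 0.23, adjusted p = 0.83). That signal was near the array medians (6.57 to 6.72), and whether the probe set detects Col8a2 was not tested. Col10a1, the hypertrophic cartilage chain of the same class, was lower in the wild-type line than in Tw1KD (-0.26), a call lost under some alternatives, and lower than in parental cells (-0.35), which held. Against parental cells Col10a1 was also lower in S42A (-0.24) and S42D (-0.26), without holding in every alternative.

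Type IV collagen is the network of the basement membrane, and its 6 genes lie in head-to-head pairs. Col4a5 (probe set 10602105) was the member that fell most in the S42D line. The parental arrays read 8.27, 8.19 and 8.32 log2, the Tw1KD arrays 8.21, 8.40 and 8.37 and the wild-type arrays 8.10, 8.13 and 8.0. The S42A arrays read 8.26, 8.39 and 8.44, and the S42D arrays 6.66, 7.06 and 6.98. The S42D arrays lay below all others, and parental, Tw1KD and S42A arrays overlapped. Col4a5 fell by 1.43 ± 0.090 log2 in S42D against Tw1KD (2.69-fold, adjusted p = 8.7e-09), and it differed by -1.18 from wild type, -1.46 from S42A and -1.36 from parental cells. S42A did not differ from Tw1KD by the test (0.03, interval -0.16 to 0.23, adjusted p = 0.82), and a small fall in the wild-type line (-0.25) was lost under all 3 other scalings. Col4a6, whose annotated start lies 1343 bases from that of Col4a5 on the other strand, lay between 5.93 and 6.61. That signal was near or below the array medians (6.57 to 6.72), and whether the probe set detects Col4a6 was not tested. S42D differed from Tw1KD by -0.19 in Col4a6 (adjusted p = 0.080) and from S42A by -0.29 (adjusted p = 0.014), a call not held in every alternative. Against parental cells Col4a6 was lower in S42D by the test (-0.34, adjusted p = 0.005), which held in every alternative. Its other calls, S42A over wild type (0.23) and wild type against parental cells (-0.28), did not hold throughout.

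Col4a1 and Col4a2, the chains of the common basement membrane protomer, start 21 bases apart on opposite strands. Col4a1 had line means of 9.24 ± 0.099 (SD, n = 3) in parental cells, 9.38 ± 0.055 in Tw1KD, 9.23 ± 0.025 in wild type, 9.26 ± 0.039 in S42A and 9.62 ± 0.037 in S42D. Col4a2 had 9.21 ± 0.070, 9.58 ± 0.060, 9.28 ± 0.070, 9.22 ± 0.064 and 9.55 ± 0.024 in the same order. Both chains were higher in S42D than in the wild-type line (Col4a1 by 0.39, Col4a2 by 0.28), the S42A line (0.36 and 0.33) and parental cells (0.39 and 0.34), with calls that held in every alternative. They parted in Tw1KD: Col4a2 was 0.37 ± 0.052 above parental cells there, as high as in S42D (-0.03, interval -0.14 to 0.08), whereas Col4a1 was 0.14 ± 0.050 above parental cells with overlapping arrays, a call lost in 8 of the 13 alternatives, and rose a further 0.24 ± 0.050 in S42D. In the wild-type and S42A lines Col4a2 was lower than in Tw1KD (-0.31 and -0.36), and it was not called against parental cells (0.06 and 0.01). The kidney and lung chains Col4a3 and Col4a4 were called in no comparison.

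Among the chains of fibrillar collagens, Col5a1, a chain of the minor fibrillar type that helps type I fibrils form and limits their diameter, had the largest differences. The parental arrays read 8.30, 8.22 and 8.35 log2, the Tw1KD arrays 7.99, 8.12 and 7.94 and the wild-type arrays 8.46, 8.43 and 8.42. Arrays of S42A read 8.43, 8.46 and 8.40, and those of S42D 8.86, 8.91 and 8.87. As for Col6a1, Tw1KD was lowest and S42D highest, neither overlapping with another line, and the wild-type and S42A arrays overlapped. Col5a1 fell by 0.27 ± 0.048 on depletion and rose against Tw1KD by 0.42 ± 0.048 in wild type, 0.42 ± 0.048 in S42A and 0.86 ± 0.048 in S42D (1.82-fold, adjusted p = 2.4e-09), all held in every alternative. S42D exceeded wild type by 0.44 and S42A by 0.45, and these 2 did not differ by the test (-0.01, interval -0.11 to 0.10). Col5a1 was the member just below the 2-fold mark; the remaining 38 stayed under 1.5-fold in all 10 comparisons. Its partner Col5a2 stayed between 5.75 and 6.19 and was called in none of the main comparisons (S42D against Tw1KD 0.03, interval -0.15 to 0.21). That signal lay below the array medians (6.57 to 6.72), and whether the probe set detects the transcript was not tested. Col5a2 was lower in wild type than in parental cells (-0.23), a call that did not hold throughout.

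The type I chains, the main fibrillar collagen of stroma, had few calls. The first of them, Col1a1, had line means of 7.71 ± 0.050 in parental cells, 7.49 ± 0.14 in Tw1KD, 7.31 ± 0.11 in wild type, 7.43 ± 0.15 in S42A and 7.47 ± 0.13 in S42D, and was called in no main comparison; against parental cells it was lower in wild type (-0.40, held in every alternative) and in S42A (-0.27). Col1a2 ranged from 7.12 ± 0.14 in wild type to 7.42 ± 0.094 in parental cells, and its single main call (S42A over wild type, 0.25, adjusted p = 0.048) had overlapping arrays and was lost under some alternatives. The fibrillar chains Col2a1, Col3a1, Col5a3, Col11a1, Col11a2, Col24a1 and Col27a1 were called in no comparison. Their S42D to Tw1KD differences, like those of Col1a1 and Col1a2, lay between -0.09 and 0.01 log2.

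**Figure D3:**
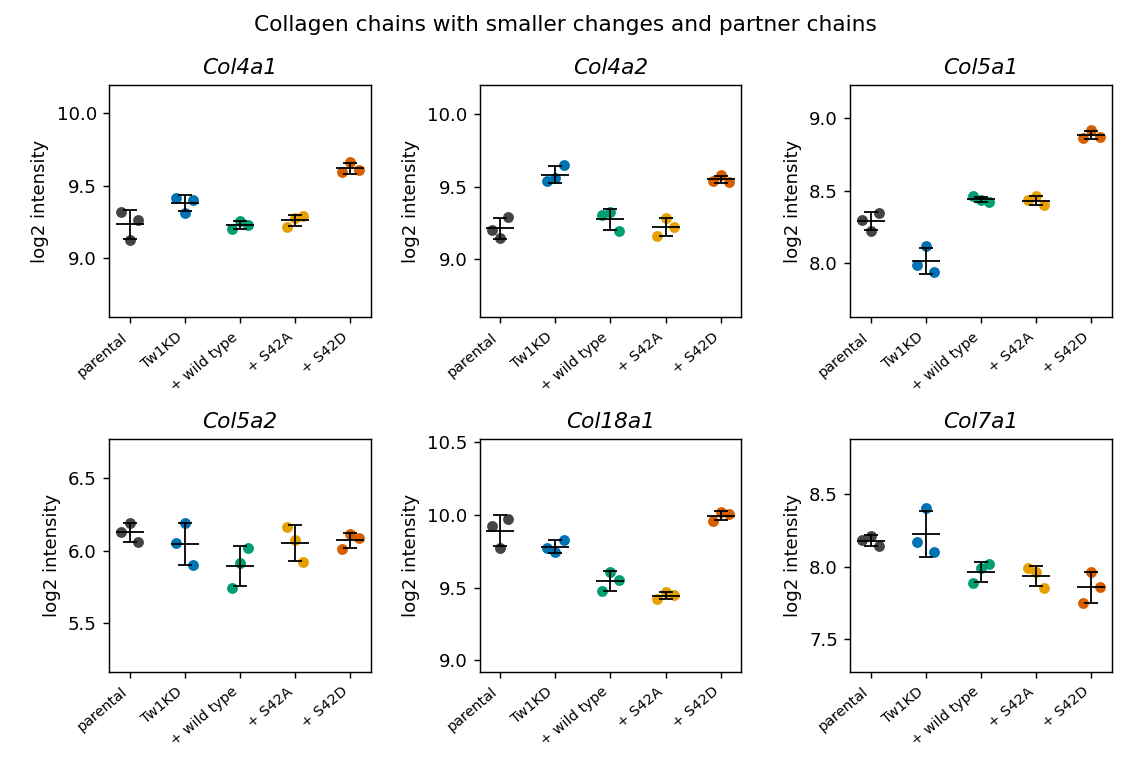
Log2 intensity of Col4a1, Col4a2, Col5a1, Col5a2, Col18a1 and Col7a1 on each of the 15 arrays (dots) of the 5 lines, with the line mean (bar) and SD (whiskers, n = 3). Col5a1 is lowest in Tw1KD and highest in S42D, Col4a2 is high in both Tw1KD and S42D, and Col18a1 is lower in the wild-type and S42A lines than in the other 3.

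Col12a1 was the only one of the 5 members with a 2-fold change to have its extreme level in the S42A line. It encodes a chain that sits on the surface of fibrils (the FACIT class, fibril-associated collagens with interrupted helices). The parental arrays read 5.72, 5.58 and 5.62 log2, the Tw1KD arrays 5.67, 5.73 and 5.50 and the wild-type arrays 5.54, 5.55 and 5.59. Arrays of S42A read 6.65, 6.57 and 6.60, and those of S42D 5.71, 5.81 and 5.73. The S42A arrays lay above all others, and the other lines lay near the 25th percentile of all gene means (5.50). Col12a1 in S42A exceeded Tw1KD by 0.98 ± 0.058 (adjusted p = 4.3e-09), wild type by 1.05 (2.07-fold), S42D by 0.86 (1.81-fold) and parental cells by 0.97, each held in every alternative. S42D was not called against Tw1KD (0.12, interval -0.01 to 0.24, adjusted p = 0.12). In the same class Col14a1 was lower in Tw1KD than in parental cells (-0.31) and higher in S42A than in Tw1KD (0.31), and neither call held in every alternative. Col16a1 was higher in S42A (0.26) and S42D (0.27) than in wild type, and lower in wild type than in parental cells (-0.34), and these calls held. Its fall in wild type against Tw1KD (-0.22) did not. The cartilage chains Col9a1, Col9a2 and Col9a3 and the chains Col19a1 and Col20a1 were called in no comparison.

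Col18a1, the multiplexin of basement membranes whose end fragment is endostatin, had line means of 9.89 ± 0.11 in parental cells, 9.78 ± 0.045 in Tw1KD, 9.55 ± 0.067 in wild type, 9.45 ± 0.022 in S42A and 9.997 ± 0.031 in S42D. It was lower in S42A than in Tw1KD (-0.34 ± 0.053) and higher in S42D (0.21 ± 0.053), and S42D exceeded wild type by 0.45 and S42A by 0.55; these 4 calls held in every alternative. In Col18a1 as in Col8a1, wild type and S42A thus lay below Tw1KD and S42D above it, though the wild-type fall of Col18a1 (-0.24) did not hold throughout. Col7a1, the anchoring fibril chain that ties epithelium to the dermis, was lower than Tw1KD in all 3 re-expressing lines. The differences were -0.26 in wild type, -0.29 in S42A and -0.36 in S42D; those of S42A and S42D held, and the lines were not called apart from each other. Col7a1 was also lower than in parental cells in S42D (-0.32), which held, and in wild type (-0.21) and S42A (-0.24), which did not hold throughout. The transmembrane chains Col13a1, Col17a1, Col23a1 and Col25a1 were called in 0 of their 28 main tests by limma. At an unadjusted p under 0.05 there was 1. Among all genes 36.1% to 48% were called per main comparison. The 28 tests reuse the same arrays. The basement membrane multiplexin Col15a1 was lower in wild type than in Tw1KD (-0.26), and Col26a1 was lower in wild type than in Tw1KD (-0.30) and parental cells (-0.30). Col28a1 was lower than in parental cells in Tw1KD (-0.25), wild type (-0.30) and S42A (-0.19), and the FACIT chain Col22a1 in wild type (-0.22). No call of Col15a1, Col22a1, Col26a1 or Col28a1 held in every alternative.

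**Figure D4:**
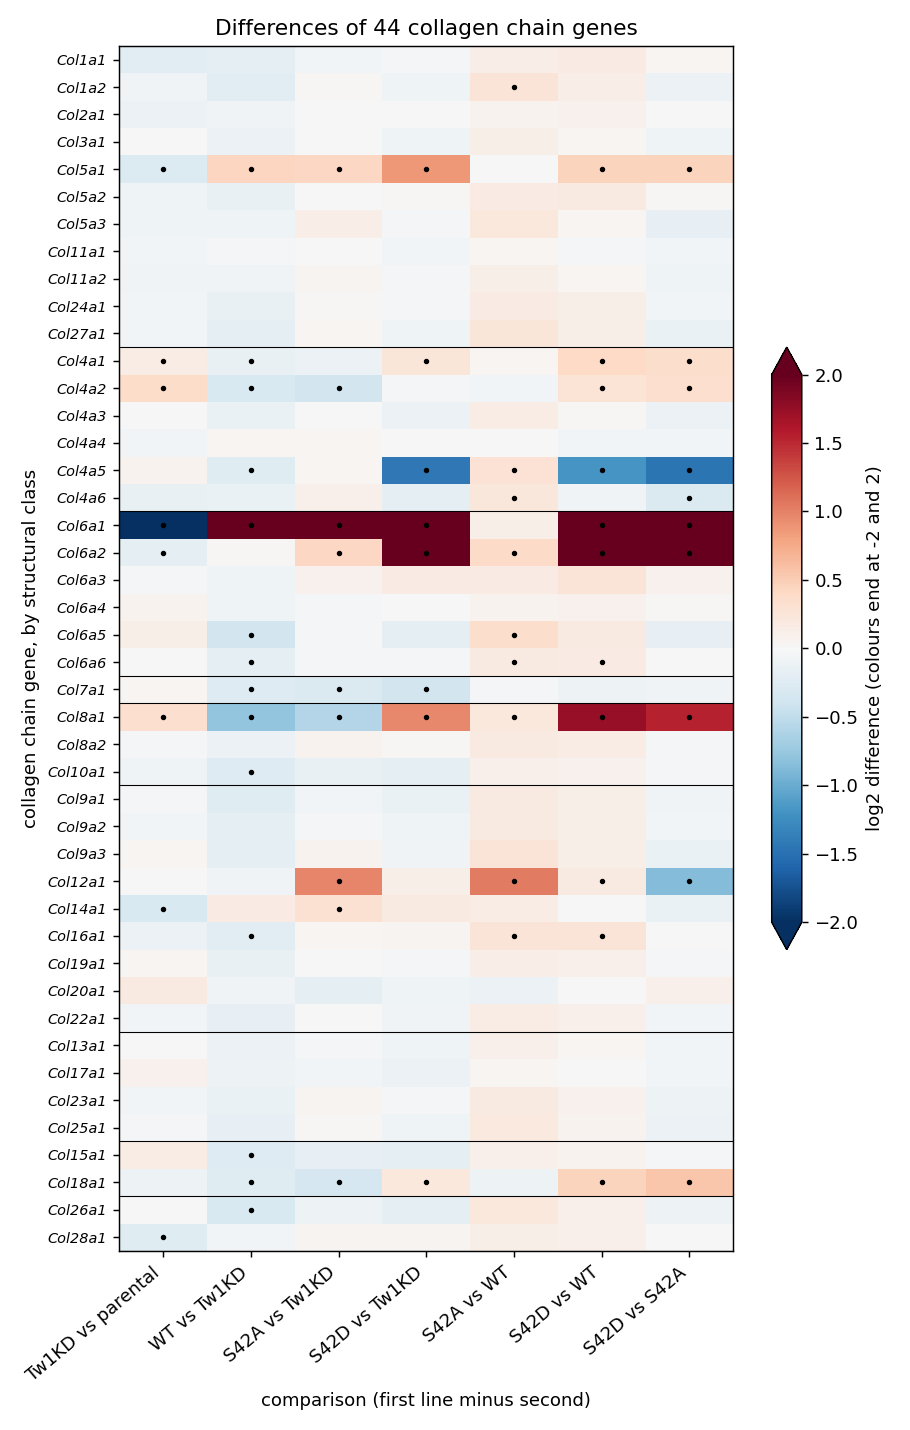
Log2 difference of the 44 collagen chain genes (rows, grouped by structural class between lines) in the 7 main comparisons (columns, first line minus second); red is higher, blue is lower, colours end at -2 and 2, and a dot marks an adjusted p under 0.05. Most rows are pale, the row of Col6a1 is saturated in 6 columns, and Col6a2, Col8a1 and Col4a5 stand out in the S42D columns.

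The 39 members without a 2-fold change shared a small drift that differed from array to array. Their median was 7.13, 7.28 and 6.94 log2 on the 3 Tw1KD arrays and 6.93, 6.96 and 7.07 on the 3 wild-type arrays, so the Tw1KD replicates alone spanned more than the difference between the lines. In wild type against Tw1KD 10 of the 39 were called lower and 1 higher, against 29.0% lower and 25% higher among the 9262 genes in the same range of mean level (5.76 to 9.73). The median difference was -0.15 for the 39 and -0.080 for those genes. Over the 7 main comparisons 69 of the 308 member tests were called (22.4%), where all genes gave 36.1% to 48% per comparison. The share of all genes' calls that held in each of the 13 alternatives run is not given here. Of the 69 member calls, 46 held in each of them. They belonged to 11 members: Col4a1, Col4a2, Col4a5, Col5a1, Col6a1, Col6a2, Col7a1, Col8a1, Col12a1, Col16a1 and Col18a1.

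Against parental cells, counts and scaling moved together. The wild-type line had 1 member higher and 14 lower (backgrounds 25% and 24%, 49% in all), which became 3 and 5 with median centring, 2 and 6 with quantile normalization and 2 and 11 with cyclic loess. Its total of 15 was 24 with only these lines fitted, and 7, 9 and 8 without parental replicate 1, parental replicate 2 and wild-type replicate 1. The S42A line had 3 higher and 6 lower (backgrounds 22.6% and 17.7%, 40.3% in all), which became 3 and 2 with median centring or quantile normalization. That total of 9 was 5 without parental replicate 1, S42A replicate 2 or S42A replicate 3, and 3 without parental replicate 2. The S42D line had 6 higher and 4 lower (backgrounds 19.8% and 17.2%, 37% in all), of which 9 held in every alternative. Median centring moved the all-gene median of wild type against parental cells from -0.050 to 0.074 log2. It also moved the share of called genes that were higher from 51.0% to 71.6% in wild type, from 56.1% to 72.8% in S42A and from 53.5% to 73.0% in S42D against parental cells, and from 49.0% to 64.3% in wild type against Tw1KD.

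The genes next to the members with large changes on the chromosome were picked after the values were seen. In single comparisons some moved with their member and others did not. Against Tw1KD, 48% of all genes were called in wild type, 42.5% in S42A and 43.4% in S42D. Ftcd, beside Col6a2, was called in no comparison (S42D against Tw1KD 0.04), and Pcbp3, beside Col6a1, was lower in S42D than in Tw1KD (-1.28 ± 0.047) where Col6a1 was higher. Filip1l and Dcbld2, on either side of Col8a1, were higher in S42D than in Tw1KD by 0.44 and 0.58, against 0.96 for Col8a1 itself. Filip1l was lower in Tw1KD than in parental cells (-0.33), where Col8a1 was higher and 36.3% of all genes were called. It was higher in S42A than in Tw1KD (0.21), where Col8a1 was lower. Dcbld2 was called in neither of these comparisons, and in wild type it was lower than in Tw1KD (-0.20), as Col8a1 was. Irs4, beside Col4a5, differed by -0.13 and was not called. Cd109, beside Col12a1, was higher than Tw1KD in S42A by 2.56 but in S42D by 2.63 as well, where Col12a1 was not called. Cox7a2, on the other side of Col12a1, was higher than Tw1KD in wild type, S42A and S42D by 0.61, 0.73 and 0.66.

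Most measured genes that fold, modify and crosslink collagen were lower in Tw1KD than in parental cells and higher in S42D than in Tw1KD. Of 33 measured, 3 were higher and 19 lower in Tw1KD than in parental cells (median -0.22), and against Tw1KD 14 were higher and 10 lower in wild type (median 0.011), 19 and 5 in S42A (0.25) and 22 and 2 in S42D (0.29). Among all genes 19.9% were higher and 16.4% lower in the first of these comparisons, and 23.5% and 24.5%, 22.8% and 19.7%, and 21.7% and 21.7% in the others. The wild-type split of the 33 was 16 and 5 with median centring. Against parental cells S42D had 13 higher, 5 lower and 15 not called (median 0.065), where all genes gave 19.8% higher and 17.2% lower. S42D had 23 higher and 5 lower than wild type (all genes 20.7% and 22.6%) and 18 higher and 2 lower than S42A (17.1% and 19.1%). Among the prolyl 3-hydroxylases, P3h2, known to act on basement membrane collagen, fell by 1.66 ± 0.073 on depletion and rose in S42D by 2.16 ± 0.073. P3h3 fell by 0.99 ± 0.059 and rose in S42D by 1.80 ± 0.059, while in wild type it was lower still (-0.46). P3h4, a helper of lysyl hydroxylation without enzyme activity, went down in wild type (-1.08) and S42A (-1.99) and was not called in S42D (-0.12).

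The proline 4-hydroxylase subunits, which stabilise the helix, and the lysyl hydroxylases, which prepare crosslinks, were also mostly higher in the S42D line. P4ha3 was higher than Tw1KD by 1.497 ± 0.085 in S42D and differed by -0.73 in S42A, a difference between these lines of 2.23 ± 0.085. P4ha1 (0.79) and P4ha2 (0.91) were higher in S42D as well, as were Plod1 (1.53 ± 0.036) and Plod2 (0.80). Plod1 was also higher in wild type (0.35) and S42A (0.69). Fkbp14, a prolyl isomerase of the endoplasmic reticulum that handles several collagens, fell by 1.31 ± 0.057 on depletion and rose by 1.42 in S42D. Of the lysyl oxidases, which crosslink collagen outside the cell, Loxl3 rose by 0.37 in wild type, 1.57 in S42A and 2.30 ± 0.048 in S42D, whereas Loxl4 was lower in S42D (-1.35 ± 0.042). Serpinh1, the collagen chaperone Hsp47, rose by 0.25, 0.54 and 0.58 in the 3 lines.

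**Figure D5:**
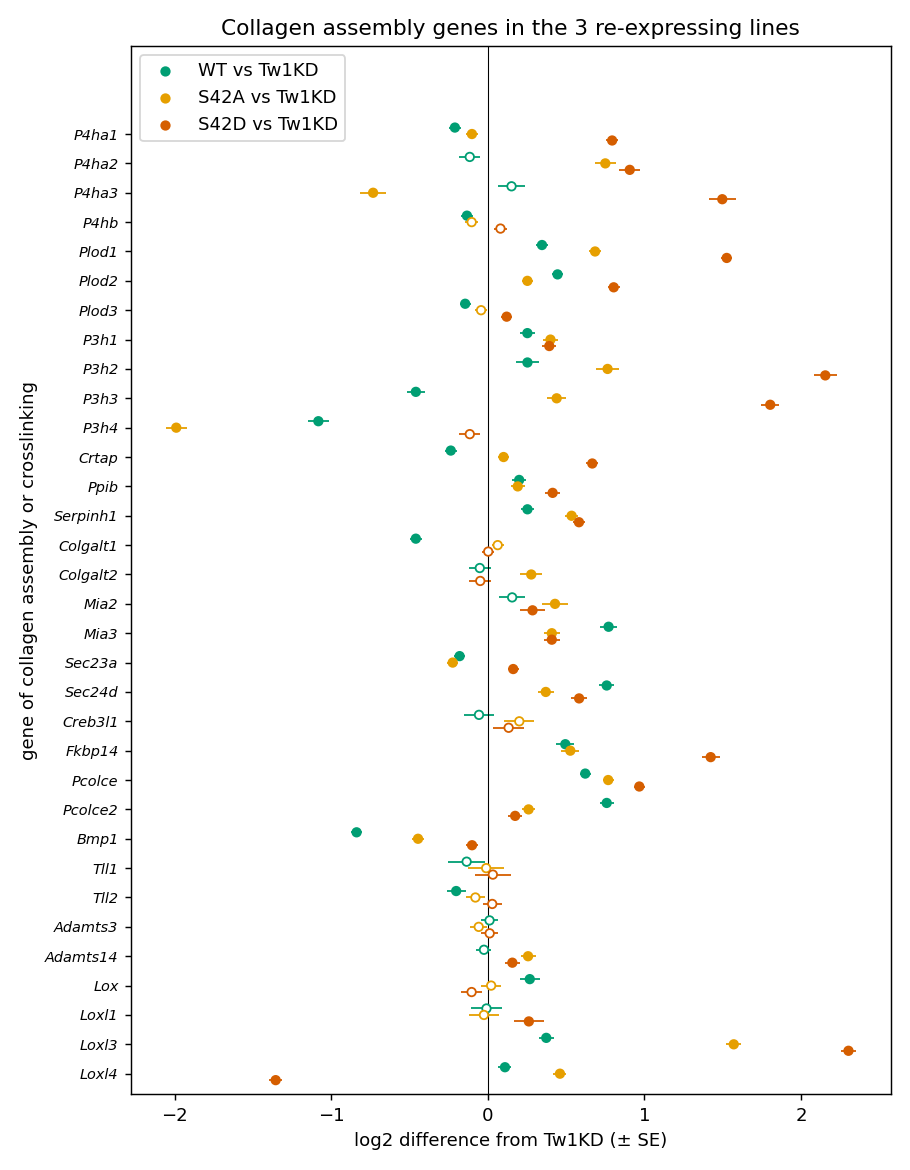
Log2 difference from Tw1KD (dots, with SE whiskers, n = 3 arrays per line) of the 33 measured genes of collagen assembly and crosslinking in the wild-type (green), S42A (yellow) and S42D (dark orange) lines; filled dots have an adjusted p under 0.05 and open dots do not. The dark orange dots of P3h2, P3h3, P4ha3, Plod1, Fkbp14 and Loxl3 lie beyond 1, and that of Loxl4 lies below -1.

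Of 13 measured collagen receptor genes, 5 were lower and 0 higher in Tw1KD than in parental cells by limma, and 1 was higher and 5 lower at an unadjusted p under 0.05. Among all genes 16.4% were called lower and 19.9% higher in that comparison. S42D had 8 higher and 3 lower than Tw1KD (all genes 21.7% and 21.7%), wild type 4 and 5 (23.5% and 24.5%), and S42A 4 and 4 (22.8% and 19.7%). Against parental cells S42D had 3 higher and 5 lower (all genes 19.8% and 17.2%). Itga1, the integrin chain that with the beta-1 chain binds basement membrane collagen, fell by 2.48 ± 0.072 on depletion. It rose by 0.54, 0.98 and 2.59 in the wild-type, S42A and S42D lines. Itga2, the chain that prefers fibrillar collagen, was not called on depletion (-0.05) and was lower in those lines (-1.40, -2.83 and -3.09). Itga10 (2.20 ± 0.073) and Mrc2, an endocytic receptor that clears collagen (1.76 ± 0.079), were higher in S42D than in Tw1KD, and neither was higher in wild type or S42A.

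In the 12 genes of collagen breakdown, 4 were higher and 5 lower in wild type than in Tw1KD, 3 and 4 in S42A and 4 and 1 in S42D, where all genes gave 23.5% and 24.5%, 22.8% and 19.7%, and 21.7% and 21.7%. The stromelysin gene Mmp3 was higher than Tw1KD by 2.996 ± 0.072, 3.09 ± 0.072 and 3.11 ± 0.072 in the 3 lines. Mmp9, the gelatinase that cuts type IV collagen, was lower in wild type (-2.26), S42A (-3.75) and S42D (-0.23), and in the last it exceeded S42A by 3.52 ± 0.057.

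Markers of other cell types moved with some of these results. The mean level of 16 fibroblast markers per array was 6.86 to 6.96 in parental cells, 6.68 to 6.80 in Tw1KD, 6.96 to 7.01 in wild type, 7.16 to 7.20 in S42A and 7.35 to 7.41 in S42D. In S42D against Tw1KD 6 of the 16 were higher, 1 lower and 9 not called, with a median of 0.046. Among all genes 21.7% were higher and 21.7% lower in that comparison, which is also the one of the marker counts below. Pdgfrb was up by 4.19 ± 0.076 and Pdgfra by 1.78, after falls of 2.09 and 1.69 on depletion, while Fbln1 was lower (-0.78). Dpt took another course, with line means of 4.76 in parental cells, 4.67 in Tw1KD, 8.65 in wild type, 8.80 in S42A and 8.17 in S42D. Thy1 (-0.02), Pdpn (-0.12), Lum (-0.08), Postn (-0.09) and Tagln (-0.12) were not called. The 12 endothelial markers averaged 6.17 to 6.34 in Tw1KD and 6.54 to 6.67 in S42D, with 2 higher and 3 lower, and Cdh5 rose by 4.68 ± 0.087 while the defining endothelial markers Pecam1 (-0.08) and Kdr (-0.16) were not called. The 11 macrophage and leukocyte markers averaged 5.76 to 5.98 in Tw1KD and 5.88 to 5.95 in S42D, with 2 higher and 0 lower by limma, both adjusted and at an unadjusted p under 0.05; the leukocyte marker Ptprc was not called (-0.03). The part of these markers in the rise of Col6a1, Col6a2, Col8a1 and Col5a1 in S42D was not tested.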

How the data were processed

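The deposited table holds log2 intensities of 34760 probe sets on 15 arrays, 3 for each of 5 lines, already summarised by the authors; the labels' protocols give 100 ng of RNA and the Ambion WT kit. R 2.10.0 and affy are named in the submitters' processing notes, and the background correction and scaling are not given in the sources used here. Probe sets were named through the platform table: 21640 had 1 symbol, 1321 several and 11799 none, and those with several were not used. The 21640 with 1 symbol gave 19937 genes, each read by its probe set with the highest mean. Of these 21640, 21553 matched RefSeq genes by gene number and took the RefSeq symbol. Promoter windows are from RefSeq on GRCm38.p6.

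A mean per line was fitted to all 15 arrays with limma 3.58.1 in R 4.3.3 (lmFit, eBayes), with contrasts for 10 comparisons, 7 of them main, and Benjamini-Hochberg adjustment over all genes; the script was tested on simulated data. SE and 95% intervals are from that fit. Every array value is printed for members with a called change of at least 2-fold and no overlap; partner chains are described whatever their result, and other called members by their differences. The number of arrays limits the precision. The 13 alternatives per comparison were other scalings, probe set means, a filter on dim genes, a replicate block, only the 2 lines compared, and each array left out in turn. The members and gene lists were chosen with earlier results of these data known.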

Additional observations from a re-analysis of the deposited data

Results flagged for a closer look

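The direct comparisons between the lines that carry different Twist1 forms called 9, 11 and 10 collagen genes in limma (S42A against wild type, S42D against wild type and S42D against S42A). These were 20.5%, 25% and 22.7% of the members, below the 40%, 43.3% and 36.1% of all genes called. The values of the 5 members with 2-fold changes follow. Col6a1 was higher in S42D than in wild type by 2.16 log2 and than in S42A by 2.04. Col6a2 was higher in S42D by 2.82 against wild type and 2.44 against S42A, and in S42A by 0.38 against wild type. Col8a1 was higher in S42D by 1.75 and 1.54 against these lines, and in S42A by 0.21 against wild type. Col4a5 differed by -1.18 in S42D against wild type, by -1.46 in S42D against S42A, and by 0.28 in S42A against wild type. Col12a1 was higher in S42A than in wild type by 1.05, differed by -0.86 in S42D against S42A, and was higher in S42D than in wild type by 0.19. The Col4a5 difference of 0.28 and the Col12a1 difference of 0.19 were each lost when certain single arrays were left out, and the latter also with median centring.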

How the results depend on the processing

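Among the 5 members with 2-fold changes, no difference called in the main fit or in the alternative changed sign. A change of sign between values that were not called was counted as the same. Of 650 alternative values 611 kept their side of the threshold, 26 lost their call and 13 gained one. Counts of collagen genes called moved by more than 1.5 times in some settings, and the cause was not tested. Tw1KD against parental cells gave 4 with only the 2 lines fitted, in place of 8. Wild type against Tw1KD gave 6 with median centring and 7 with quantile normalization, in place of 14. Wild type against parental cells gave 8 with median centring, 8 with quantile normalization and 24 with only the 2 lines fitted, in place of 15. S42A against parental cells gave 5 with median centring and 5 with quantile normalization, in place of 9. Leaving out 1 array gave 5 to 11 in Tw1KD against parental cells, and against Tw1KD 7 to 22 in wild type, 9 to 12 in S42A and 8 to 12 in S42D. It gave 5 to 11 in S42A against wild type, 9 to 11 in S42D against wild type, 9 to 10 in S42D against S42A, and against parental cells 7 to 17 in wild type, 3 to 9 in S42A and 9 to 12 in S42D. Counts over all genes stayed within 1.5 times in every alternative. Cyclic loess was chosen after seeing the data. Arrays of different lines with the same replicate number had a median correlation of deviations of -0.038 (30 pairs, 7 over 0.1, highest 0.42). For different numbers it was 0.038 (60 pairs, 20 over 0.1, highest 0.43). As a set, arrays with the same number thus did not deviate together more than others. These medians cannot show whether single arrays were handled together. With the replicate number as a block the collagen counts were 7, 14, 9 and 8 in Tw1KD against parental cells and in wild type, S42A and S42D against Tw1KD, 7, 11 and 10 in S42A and S42D against wild type and S42D against S42A, and 15, 9 and 11 in the 3 lines against parental cells.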
